A study of Mus musculus with 6 samples.

Results

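Integrins are the receptors by which cells grip the extracellular matrix and, for some of them, other cells. The 10 integrin subunit genes described here are those carried by melanoma cells or discussed for them, namely Itga1, Itga3, Itga4, Itga5, Itga6, Itgav, Itgb1, Itgb3, Itgb5 and Itgb7. They were chosen by gene symbol, and all 10 were found among the 23951 genes of the deposited table. RNA was measured in 2 libraries each of 3 mouse melanoma lines grown without treatment. B16-F1 is the line of low metastatic potential and was bought from a cell repository. B16-F1R2 was taken from a lymph node metastasis, and B16-F1R2L from a lung metastasis that itself came from a lymph node metastasis. Both variants came from 1 other laboratory, so the line and where it came from cannot be told apart, and each line is a single culture model whose 2 libraries are not said to be separate cultures. The p-values below therefore measure the spread between these libraries, which may be technical.

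An integrin is a pair of 1 alpha and 1 beta chain, and the pair decides which ligand is bound. The beta 1 chain (Itgb1) joins most alpha chains. Its pairs with alpha 5 (Itga5) and alpha 4 (Itga4) bind fibronectin, its pairs with alpha 6 (Itga6) and alpha 3 (Itga3) bind laminins, and its pair with alpha 1 (Itga1) binds collagens. Alpha v (Itgav) pairs with beta 3 (Itgb3) and beta 5 (Itgb5) and binds ligands with an RGD sequence, such as vitronectin and osteopontin. Beta 7 (Itgb7) is mainly a chain of lymphocytes, where it pairs with alpha 4. The pair of alpha 4 and beta 1 is also a receptor for EMILIN-1, the matrix protein on which the study centres, and alpha v beta 3 is known for its rise in invasive human melanoma.

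Values are FPKM (fragments per kilobase of transcript and per 1000000 mapped reads), a level per transcript length that allows genes to be set side by side. The FPKM summed to between 596657 and 672794 per library, and from the lowest steps of the values the depth was estimated at 12300000 to 14900000 reads per library. The tests between lines used log2(FPKM + 0.1) and limma, a linear model that pools the spread across genes, and took in 11379 genes, those with 2 or more libraries at or above 1 FPKM. A call is an adjusted p under 0.05 (Benjamini-Hochberg over all 11379 genes), and log2 differences, their standard errors (SE) and fold values are on this scale. The labelled cell type was checked first. All 7 melanocyte markers (Mitf, Sox10, Tyr, Tyrp1, Dct, Pmel and Mlana) exceeded 1 FPKM in every library, and their summed level was 14970 and 15007 for B16-F1, then 8125 and 7909 for B16-F1R2 and finally 8933 and 8924 for B16-F1R2L. Against B16-F1, 6 of these markers were lower in B16-F1R2, where 27.2% of all tested genes were lower, and in B16-F1R2L 6 were lower (27.1% of all) and Mitf was higher by 0.40 on the log2 scale (adjusted p = 0.0032, limma). In bulk RNA fewer cells with a transcript and less transcript per cell cannot be told apart. No fibroblast or keratinocyte marker of the lists reached 1 FPKM in any library.

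The receptor equipment of these cells was dominated by Itgb1 in all 3 lines. Itgb1, the shared beta chain, stood at 192 and 191 FPKM for B16-F1, with 190.1 and 191 for B16-F1R2 and with 194 and 206 for B16-F1R2L. The next highest value of any member was 31.03 FPKM, of Itga6 in B16-F1R2 library 2. In B16-F1 the next levels were those of Itgav, Itga6, Itga4, Itgb5, Itga5, Itgb3 and Itga1, in this order, and only Itgb5 and Itga5 overlapped between neighbours. In B16-F1R2 Itga6 took the second place, while Itga4 overlapped with Itgav, Itgb3 with Itga1 and Itga3 with Itgb7. In B16-F1R2L the order was Itga6, Itga4, Itga5, Itgav and Itgb5, with an overlap between Itga5 and Itgav only. Itga3 and Itgb7 stayed under 1 FPKM in every library, so 8 of the 10 members passed the filter and were tested.

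**Figure D1:**
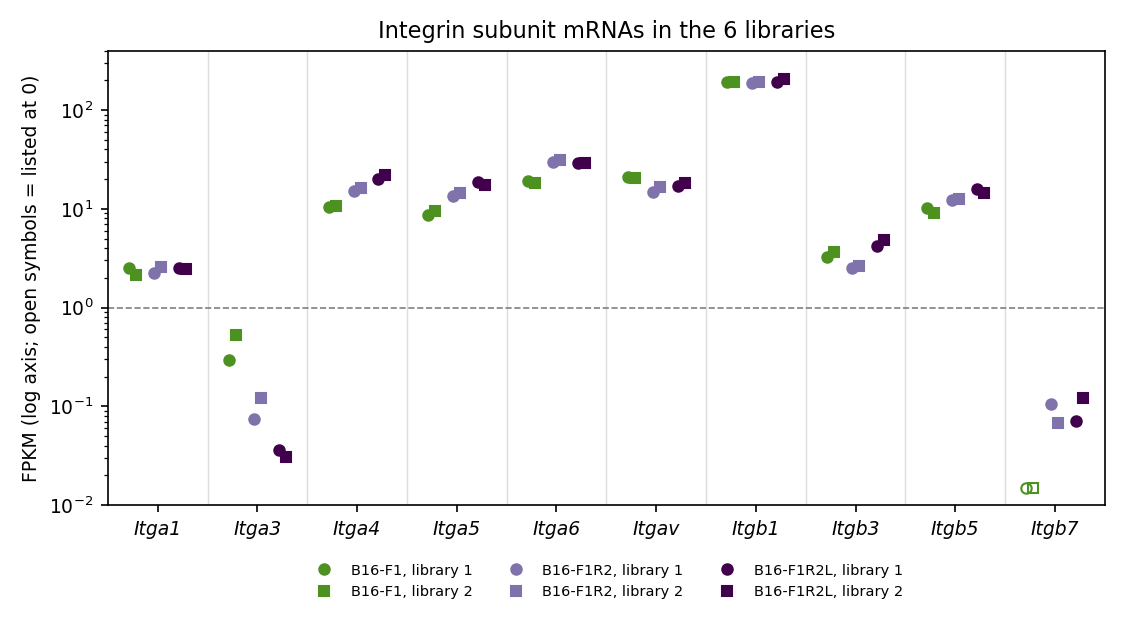
FPKM of the 10 integrin subunit genes (log axis) in each of the 6 libraries, coloured by line, circles for library 1 and squares for library 2; the dashed line marks 1 FPKM and open symbols mark a value listed at 0. Itgb1 lies near 190 to 206 FPKM in all lines, Itga4, Itga5 and Itgb5 step up from B16-F1 to B16-F1R2 to B16-F1R2L, and Itga3 and Itgb7 stay under 1 FPKM.

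Between B16-F1R2 and B16-F1, the comparison of the lymph node variant with the line of low metastatic potential, Itga4, Itga5, Itga6 and Itgb5 rose and Itgav and Itgb3 fell. This makes 4 of the 8 tested members higher, where 28.2% of all tested genes were higher, and 2 lower, where 27.2% of all were. Itga1 and Itgb1 did not pass the test. In either direction 6 of the 8 members were called, in a comparison in which 55.4% of all tested genes were. Both libraries of B16-F1R2 lay above both of B16-F1 for 4 members (40.3% of all tested genes) and below for 3 (39.7%), so 7 of 8 did not overlap, against 80.0% of all genes. The median log2 difference was 0.21 over the 8 members and 0.0046 over all tested genes, and the largest change of a tested member was 1.63-fold. In B16-F1R2L against B16-F1, which shares the B16-F1 libraries with the comparison above, 5 members were higher (29.5% of all) and 1 lower (27.1%), together 6 of 8 against 56.7%. There 6 members lay wholly above B16-F1 (41.7% of all) and 1 below (39.1%), against 80.8% of all genes without overlap.

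Itga4, the alpha 4 chain that binds fibronectin, VCAM-1 and EMILIN-1, was measured at 10.4 and 10.6 FPKM for B16-F1, then 15.2 and 16.3 for B16-F1R2 and finally 20.1 and 21.9 for B16-F1R2L. The 3 lines did not overlap and B16-F1R2L was the highest. The log2 difference between B16-F1R2 and B16-F1 was 0.58 (SE 0.07, adjusted p = 5.9e-04, limma), a 1.49-fold rise. Between B16-F1R2L and B16-F1 it was 0.99 (adjusted p = 6.3e-05, limma). In NCBIM37 (mm9) the gene spans bases 79095583 to 79173280 of chromosome 2, plus strand, and its exons overlap on the opposite strand with those of Cerkl, a gene that had 1.38 and 2.12 FPKM for B16-F1, with 3.05 and 3.03 for B16-F1R2 and with 3.61 and 4.26 for B16-F1R2L. Cerkl was thus higher in both variants, as Itga4 was, and its part in the Itga4 values was not tested. The library kit keeps the strand, but whether it was used in making the FPKM is not given in the sources used here.

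Itga5, the alpha chain of the classical fibronectin receptor, showed the same order, with 8.61 and 9.47 FPKM for B16-F1, with 13.6 and 14.4 for B16-F1R2 and with 18.8 and 17.5 for B16-F1R2L. Its log2 difference was 0.63 (SE 0.07, adjusted p = 6.5e-04, limma) between B16-F1R2 and B16-F1 and 1.00 (adjusted p = 9.1e-05, limma) between B16-F1R2L and B16-F1, a doubling of the level on this scale. In the same build it spans bases 103174720 to 103197194 of chromosome 15, minus strand, and has 1 annotated transcript of 4379 bases in 30 exons. On chromosome 15 the median log2 difference of the 415 tested genes was 0.10 in B16-F1R2 against B16-F1.

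Itga6, the laminin receptor chain, also rose in both variants, but to a like level. It was measured at 19.1 and 18.2 FPKM for B16-F1, then 30.0 and 31.03 for B16-F1R2 and finally 29.1 and 28.9 for B16-F1R2L. The log2 difference from B16-F1 was 0.71 (SE 0.05, adjusted p = 7.3e-05, limma) in B16-F1R2, the largest of the tested members there, and 0.64 (adjusted p = 1.1e-04, limma) in B16-F1R2L. The gene spans bases 71583673 to 71696473 of chromosome 2, plus strand, where 9 transcripts are annotated, and Itgav spans 83564554 to 83647073 on the same strand, so that Itga6, Itga4 and Itgav share a chromosome. The median log2 difference of the 844 tested genes of chromosome 2 was 0.0087 in B16-F1R2 against B16-F1. Between the variants that of Itga6 was -0.07, with a 95% interval from -0.19 to 0.05. When the libraries were rescaled to a sum of 1000000 this small value became positive, at 0.03.

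Itgav, the alpha chain shared by receptors for RGD ligands, stood at 21.0 and 20.3 FPKM for B16-F1, with 14.8 and 16.6 for B16-F1R2 and with 17.2 and 18.5 for B16-F1R2L, so that both variants lay below B16-F1. It fell by 0.40 on the log2 scale in B16-F1R2 (SE 0.07, adjusted p = 0.0043, limma). In B16-F1R2L the log2 difference from B16-F1 was -0.21 (adjusted p = 0.047, limma), a call lost under 9 of the 17 alternatives. This second call was lost when any 1 of the 4 libraries compared was left out, with an adjusted p of 0.18 and 0.12 without B16-F1 library 1 and 2 and of 0.18 and 0.059 without B16-F1R2L library 1 and 2, and also after rescaling to a sum of 1000000 (log2 difference -0.11, adjusted p = 0.37, limma).

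Itgb5, a beta partner of alpha v, rose where Itgav fell. Its levels were 10.1 and 9.03 FPKM for B16-F1, then 12.2 and 12.7 for B16-F1R2 and finally 15.8 and 14.6 for B16-F1R2L, with no overlap between the lines. The log2 difference from B16-F1 was 0.37 (SE 0.08, adjusted p = 0.0075, limma) in B16-F1R2 and 0.66 (adjusted p = 6.8e-04, limma) in B16-F1R2L. The gene spans bases 33829751 to 33949239 of chromosome 16, plus strand, with 5 annotated transcripts.

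Itgb3, the other beta partner of alpha v and a chain of the vitronectin receptor, moved in opposite directions in the 2 variants. It was measured at 3.23 and 3.65 FPKM for B16-F1, with 2.52 and 2.65 for B16-F1R2 and with 4.18 and 4.88 for B16-F1R2L. The lymph node variant was the lowest and B16-F1R2L the highest, without overlap. The log2 difference from B16-F1 was -0.40 (SE 0.12, adjusted p = 0.029, limma) in B16-F1R2 and 0.39 (adjusted p = 0.031, limma) in B16-F1R2L. Both calls depended on single libraries. The first was lost without B16-F1 library 2 (adjusted p = 0.15), B16-F1R2 library 1 (0.11) or B16-F1R2 library 2 (0.073), and the second without B16-F1 library 1 (0.15), B16-F1 library 2 (0.051) or B16-F1R2L library 2 (0.15), all from limma. After quantile normalization the second was 0.08 (adjusted p = 0.56, limma). Itgb3 spans bases 104469370 to 104531790 of chromosome 11, plus strand, with 2 annotated transcripts.

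Itgb1 and Itga1 give the bounds on what did not pass. The log2 difference of Itgb1 was -0.0076 in B16-F1R2 against B16-F1, with a 95% interval from -0.11 to 0.10, and 0.06 in B16-F1R2L against B16-F1 (adjusted p = 0.26, limma). The latter was 0.16 after rescaling to a sum of 1000000 (adjusted p = 0.041) and 0.21 after quantile normalization (adjusted p = 0.018), so this call depends on the scaling. Quantile normalization also gave 0.21 between the variants (adjusted p = 0.047, limma). Itga1, the collagen receptor chain, had 2.52 and 2.15 FPKM for B16-F1, then 2.26 and 2.57 for B16-F1R2 and finally 2.52 and 2.45 for B16-F1R2L. The lines overlapped, and the 95% interval of its log2 difference between B16-F1R2 and B16-F1 ran from -0.27 to 0.36.

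**Figure D2:**
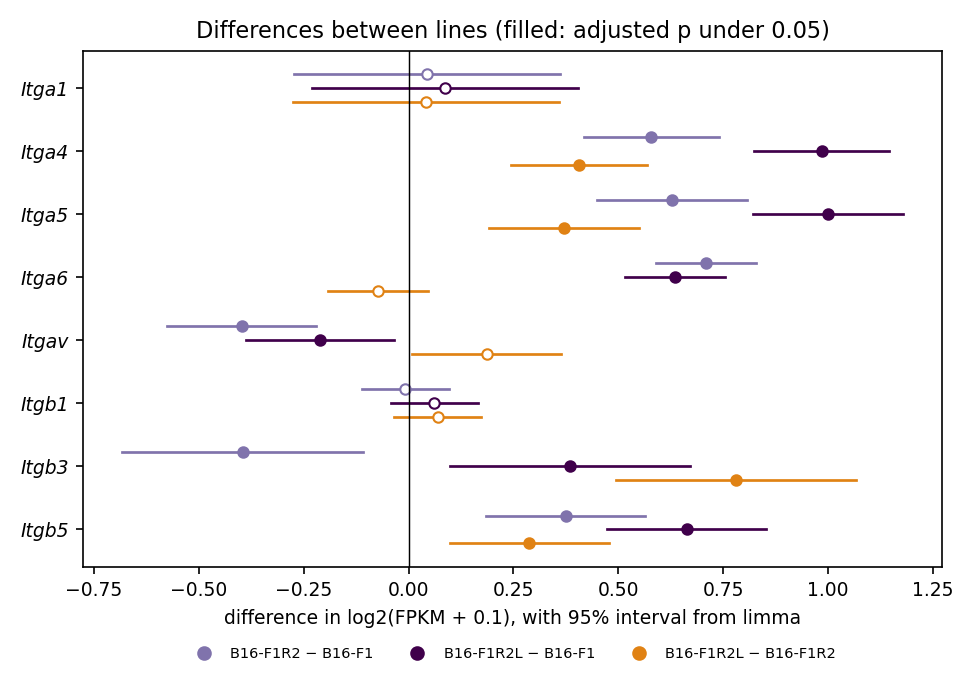
Differences in log2(FPKM + 0.1) between the lines for the 8 tested members, with 95% intervals from limma (bars), filled where the adjusted p was under 0.05. Itga4, Itga5 and Itgb5 are positive in all 3 comparisons, Itgav is negative against B16-F1, and the interval of Itgb3 lies below 0 in B16-F1R2 and above 0 in B16-F1R2L against B16-F1.

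The 2 members below the filter showed few reads. Itga3, a laminin receptor chain, was at 0.297 and 0.526 FPKM for B16-F1, with 0.0740 and 0.121 for B16-F1R2 and with 0.0364 and 0.0310 for B16-F1R2L. Both variants lay below B16-F1, and at the estimated depth these values stand for about 19.2 and 31.4 reads in B16-F1 but for 2.24 to 8.80 in the variants. Itgb7 was listed at 0 in both B16-F1 libraries and at 0.107, 0.0671, 0.0707 and 0.122 in the libraries of B16-F1R2 and B16-F1R2L, or about 2.51 to 4.86 reads. Without the filter, which raised the number of tested genes to 16483, the log2 difference between B16-F1R2 and B16-F1 was -1.34 for Itga3 (adjusted p = 0.015, limma) and 0.89 for Itgb7 (adjusted p = 0.020, limma), and the size of both follows the pseudocount.

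Between the variants themselves, 4 of the 8 tested members were higher in B16-F1R2L than in B16-F1R2, where 12.1% of all tested genes were higher, and 0 were lower, where 10.5% of all were. In either direction 22.6% of all tested genes were called. At an unadjusted p under 0.05 Itgav was added to the higher genes, and none was lower. The log2 differences were 0.78 for Itgb3 (SE 0.12, adjusted p = 0.010, limma), 0.41 for Itga4 (SE 0.07, adjusted p = 0.012, limma), 0.37 for Itga5 (SE 0.07, adjusted p = 0.020, limma) and 0.29 for Itgb5 (SE 0.08, adjusted p = 0.046, limma). Itgav had 0.19 (adjusted p = 0.11, limma). These 5 and Itgb1 had both B16-F1R2L libraries above both of B16-F1R2, as 35.9% of all tested genes did, and Itga6 had both below, as 29.2% did, so that 7 of 8 did not overlap, against 65.2% of all.

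These calls depended on single libraries. Without B16-F1R2 library 1 or B16-F1R2L library 2 no member was called, while the share called of all tested genes dropped from 22.6% to 3.84% and 4.74%. The adjusted p (limma) without them was 0.073 and 0.062 for Itga4, 0.10 and 0.061 for Itga5, 0.064 and 0.057 for Itgb3 and 0.18 and 0.094 for Itgb5. Without B16-F1R2 library 2 or B16-F1R2L library 1, Itga5 (0.056 and 0.068) and Itgb5 (0.11 and 0.15) were lost. The call of Itgb5 was lost under 13 of the 17 alternatives. Among these were the fits without either B16-F1 library (0.058 and 0.057), which enter only through the shared spread, the block for the replicate number (0.051) and the fit of only the 4 libraries of the 2 lines (0.057). The 4 log2 differences were positive under every alternative run. When the libraries were rescaled to a sum of 1000000, the median of all genes moved from 0.022 to 0.13 and the share of higher genes among those called from 53.7% to 81.0%, and Itgb3, Itga4, Itga5 and Itgb5 had 0.90, 0.52, 0.48 and 0.40.

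The alpha chains were also summed, and ratios of levels were taken within each library, which 1 factor per library does not change. The 6 alpha members together had 62.0 and 61.3 FPKM for B16-F1, then 76.0 and 81.1 for B16-F1R2 and finally 87.8 and 89.2 for B16-F1R2L, so the lines did not overlap. Itgb1 was present at 3.11 ± 0.015 times this sum (mean ± SD, n = 2 libraries) in B16-F1, then 2.43 ± 0.10 times in B16-F1R2 and finally 2.26 ± 0.064 times in B16-F1R2L. The mRNA of the common beta chain thus exceeded that of its alpha partners in every library.

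Within the alpha sum, Itgav took the largest share in B16-F1, at 33.5% ± 0.50 (SD, n = 2), against 20.0% ± 0.72 in B16-F1R2 and likewise 20.2% ± 0.81 in B16-F1R2L. The share of Itga6 was 30.2% ± 0.84, 38.9% ± 0.86 and 32.8% ± 0.58 in the same order, and Itga6 led in both variants. Itgav to Itga5, the alpha chains of 2 receptors for RGD ligands, stood at a ratio of 2.29 ± 0.21 for B16-F1, then 1.12 ± 0.048 for B16-F1R2 and finally 0.985 ± 0.10 for B16-F1R2L. Between the beta partners of alpha v, the ratio of Itgb3 to Itgb5 was 0.361 ± 0.061, 0.208 ± 0.0012 and 0.299 ± 0.049 in these lines, and the values of B16-F1 and B16-F1R2L overlapped. Quantile normalization, which is no single factor, moved the latter ratio to 0.199 in B16-F1R2. These are values of mRNA, and no test was run on the ratios.

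**Figure D3:**
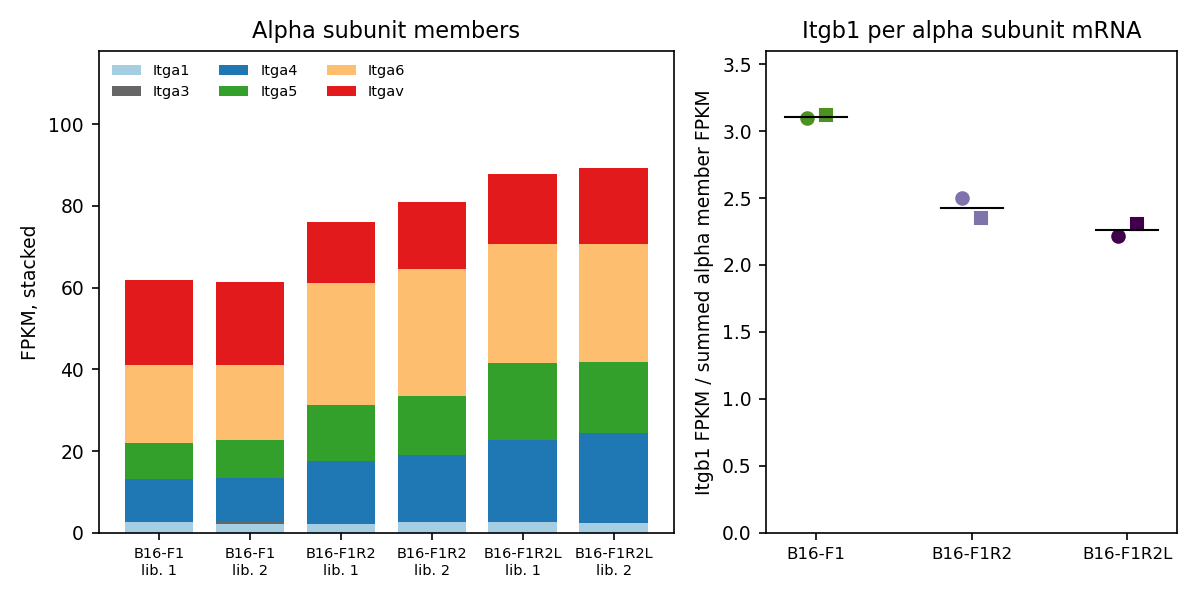
Left, stacked FPKM of the 6 alpha subunit members in each library (Itga3 is hardly visible); right, Itgb1 FPKM divided by this sum for each library (points) with the mean of each line (bar). The summed alpha level is 61.3 to 62.0 in B16-F1, then 76.0 to 81.1 in B16-F1R2 and finally 87.8 to 89.2 in B16-F1R2L, and the mean ratio is 3.11, 2.43 and 2.26 in this order.

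The promoters of 4 members are shown because these genes went different ways between B16-F1 and both variants, with Itga4, Itga5 and Itgb5 higher and Itgav lower. The sequences are the 250 bases before the annotated start, 5′ to 3′ on the strand of the gene, from RefSeq on GRCm38.p6, a later build than that of the FPKM. They are chr2:79255176-79255425 (plus strand) for Itga4, chr15:103366792-103367041 (minus) for Itga5, chr16:33829415-33829664 (plus) for Itgb5 and chr2:83724147-83724396 (plus) for Itgav. Capitals mark the GC box GGGCGG on either strand, the motif of Sp1.
Itga4: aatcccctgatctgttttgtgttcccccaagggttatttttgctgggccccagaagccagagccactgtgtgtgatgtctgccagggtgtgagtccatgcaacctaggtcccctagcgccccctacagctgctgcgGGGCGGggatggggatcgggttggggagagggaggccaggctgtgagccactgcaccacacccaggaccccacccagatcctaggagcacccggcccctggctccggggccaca
Itga5: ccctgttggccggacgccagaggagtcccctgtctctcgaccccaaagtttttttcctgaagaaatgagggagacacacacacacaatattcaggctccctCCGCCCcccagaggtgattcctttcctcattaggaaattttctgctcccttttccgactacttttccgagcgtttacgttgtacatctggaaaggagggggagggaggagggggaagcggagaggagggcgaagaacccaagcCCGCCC
Itgb5: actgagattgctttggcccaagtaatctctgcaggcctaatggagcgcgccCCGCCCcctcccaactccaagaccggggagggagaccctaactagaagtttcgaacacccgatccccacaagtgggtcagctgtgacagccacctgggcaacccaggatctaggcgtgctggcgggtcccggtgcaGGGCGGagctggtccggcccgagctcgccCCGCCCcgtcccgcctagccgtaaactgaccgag
Itgav: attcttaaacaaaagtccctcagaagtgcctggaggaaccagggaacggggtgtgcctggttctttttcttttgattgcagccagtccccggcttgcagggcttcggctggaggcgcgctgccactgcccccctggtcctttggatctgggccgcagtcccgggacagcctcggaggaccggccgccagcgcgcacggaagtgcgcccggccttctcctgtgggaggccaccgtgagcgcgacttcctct
The GC box occurred 1 time in the Itga4 window, 2 times in Itga5, 3 times in Itgb5 and 0 times in Itgav, and 32.7% of 32851 RefSeq windows of this length held it. Of the members not shown, Itgb1, which did not pass the test, had 1, and Itga1 and Itgb7 had 0. Both windows of Itga3, the member whose level was lower in both variants but under the filter, had 1 and 3. Itga6 and Itgb3 had no window in the source used. With so few windows, a link between the count and the direction of the difference was not tested. The windows had a GC content of 64.0% for Itga4, 55.6% for Itga5, 65.2% for Itgb5 and 64.4% for Itgav, against a median of 52.4% over all windows. CpG pairs numbered 6 in Itga4, 11 in Itga5, 18 in Itgb5 and 18 in Itgav, with a median of 6 over all windows. Of 3 further motifs searched on both strands, the E-box CACGTG, the sequence CATGTG (the core of the M-box bound by MITF) and the AP-1 site TGANTCA, none occurred in these 4 windows, and they were held by 6.02%, 12.3% and 6.75% of all windows. These counts describe the letters of these windows only.

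Outside the 10 members, 3 of the 17 other integrin subunit genes passed the filter, and they held the largest change of the family. Itgb2, the beta chain of the leukocyte integrins, was at 0.0280 FPKM in B16-F1 library 1 and listed at 0 in library 2, against 9.11 and 7.35 for B16-F1R2 and against 10.9 and 11.0 for B16-F1R2L. It was thus practically without signal in B16-F1 and, in both variants, above Itgb3. Itgb2 passed the filter only through the variants and so had to differ. The log2 difference between B16-F1R2 and B16-F1 was 6.19, but its size is set by the pseudocount and ran from 3.18 to 8.71 over the alternatives. No exon of another gene overlaps those of Itgb2, and 0 of its 3015 stretches of 50 bases occurred in protein-coding transcripts of other genes.

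The alpha partners of Itgb2 did not reach 1 FPKM. Itgam, Itgax and Itgad were listed at 0 in all 6 libraries. Itgal, the alpha chain of LFA-1, was at 0.0438 and 0.0153 FPKM for B16-F1, with 0.328 and 0.364 for B16-F1R2 and with 0.362 and 0.509 for B16-F1R2L. Icam1, whose product is the ligand of LFA-1, had 0.0690 FPKM in B16-F1 library 1 and was listed at 0 in library 2, against 2.73 and 3.31 for B16-F1R2 and against 2.02 and 1.96 for B16-F1R2L (log2 difference between B16-F1R2 and B16-F1 4.58). It passed the filter only through the variants and so had to differ, and the size of this difference follows the pseudocount, from 1.96 to 6.75 over the alternatives.

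As Itgb2 is a leukocyte gene, the list of 10 leukocyte markers is given beside it. Ptprc, Itgam, Cd3e, Emr1 and Tyrobp, among them the pan-leukocyte marker CD45 (Ptprc), were listed at 0 in all libraries. Besides Itgb2, Cd79a and Lyz2 passed the filter and rose in both variants. All 3 were under 1 FPKM in both B16-F1 libraries and passed the filter only through the variants, so that their number is no support for a rise of the list. Their levels went, for Cd79a, from 0 and 0.0593 FPKM in B16-F1 to between 12.4 and 17.1 in the variants and, for Lyz2, from 0.170 and 0.625 to between 0.916 and 2.05. Csf1r, below the filter, was listed at 0 in B16-F1 and had 0.0397 to 0.174 FPKM in the variants, and Itgal is given above. The summed level of the list was 0.242 and 0.700 FPKM for B16-F1, then 23.1 and 21.3 for B16-F1R2 and finally 30.5 and 29.0 for B16-F1R2L. Itgb2 itself and Cd79a carried this sum, and the other 8 markers together had 0.214 and 0.640 FPKM for B16-F1, with 1.28 and 1.60 for B16-F1R2 and with 2.49 and 2.19 for B16-F1R2L. Of the 5 platelet and megakaryocyte markers, listed since Itgb3 is also a platelet integrin chain, only Gp9 passed the filter, through the variants alone; it was listed at 0 in B16-F1 and rose in both variants, and the summed level of the 5 was 0.141 to 0.267 FPKM in B16-F1 and 1.32 to 2.39 in the variants. Of the 7 endothelial markers, Pecam1 (which also passed only through the variants) rose and Prox1 fell in both variants against B16-F1, and Cdh5, Kdr, Tek and Lyve1 were listed at 0 in all libraries. The part of these markers, and of the lower melanocyte markers, in the integrin results was not tested.

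Itga9, the alpha 9 chain and another EMILIN-1 receptor chain, was at 5.94 and 5.56 FPKM for B16-F1, with 5.59 and 5.41 for B16-F1R2 and with 9.39 and 9.72 for B16-F1R2L. It rose in B16-F1R2L against each of the other lines, with log2 differences of 0.79 from B16-F1R2 (adjusted p = 0.0031, limma) and 0.72 from B16-F1 (adjusted p = 3.4e-04, limma), and B16-F1R2 overlapped with B16-F1. Itga7, a laminin receptor chain of muscle, went from 0.156 and 0.0931 FPKM for B16-F1 to 1.22 and 1.09 for B16-F1R2 and to 1.23 and 1.27 for B16-F1R2L (log2 difference between B16-F1R2 and B16-F1 2.49, adjusted p = 2.6e-04, limma). Its size ran from 0.80 to 3.15 over the alternatives. Like Itgb2, it passed the filter only through the variants and so had to differ. The other 14 subunit genes of the list stayed below the filter.

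Ligands of these receptors were called in both directions. Of 34 ligand genes listed, 22 passed the filter, and against B16-F1 the lymph node variant had 11 of them higher (28.2% of all tested genes) and 7 lower (27.2%). Fn1 (fibronectin) had a log2 difference of 2.57 and Spp1 (osteopontin, an RGD ligand of alpha v) of 4.43. Emilin1, the ligand of alpha 4 beta 1, had 3.15, and Lamb1, a laminin beta chain, fell by 3.98. Col1a1, the collagen chain with the largest rise of the list, had 5.54. Over the alternatives the size ran from 3.37 to 4.61 for Spp1, from -4.84 to -2.86 for Lamb1 and from 3.82 to 5.95 for Col1a1. Of the 22 ligand genes, 5 (Col1a1, Col1a2, Icam1, Postn and Spp1) were under 1 FPKM in B16-F1 and passed the filter only through the variants, and 1 (Lamb1) only through B16-F1. Of the other 16, 6 were higher and 6 lower in B16-F1R2 against B16-F1.

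Vcam1, a ligand of alpha 4 beta 1, and Vtn (vitronectin) did not exceed 0.0478 FPKM in any library and were not tested. Between the variants, 7 ligand genes were higher (12.1% of all tested genes) and 5 lower (10.5%) in B16-F1R2L, but with 1 library left out in turn 2 to 7 ligand genes were called, while the share called of all tested genes fell to between 3.84% and 16.7%. The largest changes were those of Col1a1 (log2 difference -2.73), Spp1 (1.00), Col1a2 (0.80) and Cyr61 (-0.79), with adjusted p of 9.96e-04, 0.0018, 0.028 and 0.029 from limma. Without a single library of the variants, the adjusted p of Col1a2 rose to at most 0.13 (B16-F1R2L library 2; also lost without either B16-F1R2 library, 0.096 and 0.096) and that of Cyr61 to at most 0.12, lost without any 1 of these 4 libraries. Spp1 had its highest values, 31.7 and 32.7 FPKM, in B16-F1R2L, where Itgb3 and Itgb5 were also highest but Itgav lay below B16-F1. Fn1 and Emilin1 went the other way from Itga4, Itga5 and Itga9, which were higher in B16-F1R2L than in B16-F1R2. Their log2 differences between the variants were -0.37 and -0.30 (adjusted p = 0.033 and 0.042, limma). These 2 calls were lost under 10 and 11 of the 17 alternatives. Whether ligand and receptor levels go together was not tested.

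Adaptors and activators act on the cytoplasmic side of the receptors. Of the 31 of them listed, 26 passed the filter, and against B16-F1 the lymph node variant had 10 higher and 8 lower, where 28.2% and 27.2% of all tested genes were, with a median log2 difference of 0.018. Talins and kindlins switch integrins on at the beta chain tail. Tln1 (talin 1) was at 82.5 and 84.7 FPKM for B16-F1, then 68.5 and 72.4 for B16-F1R2 and finally 61.6 and 53.6 for B16-F1R2L, and Fermt2 (kindlin-2) at 65.5 and 69.0 for B16-F1, with 105 and 105 for B16-F1R2 and with 97.6 and 98.2 for B16-F1R2L.

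The log2 difference of Tln1 from B16-F1 was -0.25 (adjusted p = 0.025, limma) in B16-F1R2 and -0.54 (adjusted p = 0.0011, limma) in B16-F1R2L. The first was lost when any 1 of the 4 libraries compared was left out, with adjusted p of 0.081 and 0.12 without B16-F1 library 1 and 2 and of 0.12 and 0.054 without B16-F1R2 library 1 and 2. Tln2 (talin 2), at 11.8 and 11.7 FPKM for B16-F1, then 16.7 and 16.6 for B16-F1R2 and finally 17.0 and 16.03 for B16-F1R2L, rose by 0.50 (adjusted p = 4.8e-04, limma) in B16-F1R2 and by 0.49 (adjusted p = 5.4e-04, limma) in B16-F1R2L against B16-F1. Fermt2 rose by 0.65 (adjusted p = 5.6e-05, limma) and 0.54 (adjusted p = 1.1e-04, limma). Ptk2 (focal adhesion kinase) was at 34.5 and 34.0 FPKM for B16-F1, then 38.4 and 39.5 for B16-F1R2 and finally 43.6 and 44.1 for B16-F1R2L, with a log2 difference of 0.18 in B16-F1R2 against B16-F1 (adjusted p = 0.010, limma) that was lost without B16-F1 library 2 (0.065) or B16-F1R2 library 2 (0.053). The scaffold kinase gene Ilk, at 96.1 to 109.7 FPKM, did not pass the test in any comparison.

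The 2 adaptors with the largest rise in the variants bind beta chain tails or their adhesions. Dab2, an endocytic adaptor, went from 2.05 and 2.43 FPKM for B16-F1 to 26.0 and 28.3 for B16-F1R2 and to 23.0 and 24.8 for B16-F1R2L (log2 difference between B16-F1R2 and B16-F1 3.54, adjusted p = 2.2e-06, limma). Tns1 (tensin 1) was at 0.305 and 0.256 FPKM for B16-F1, with 1.95 and 1.77 for B16-F1R2 and with 3.99 and 4.04 for B16-F1R2L, and its log2 difference between the variants was 1.07 (adjusted p = 0.0087, limma). Tns1 and Lims2, 2 of the 26 adaptors, passed the filter only through the variants. The call of Tns1 between the variants was lost without B16-F1R2 library 1 (0.051) or B16-F1R2L library 2 (0.056). Of the 15 surface partners and trafficking genes, such as the tetraspanins, 13 passed the filter, and against B16-F1 the lymph node variant had 3 higher and 7 lower, where 28.2% and 27.2% of all tested genes were.

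**Figure D4:**
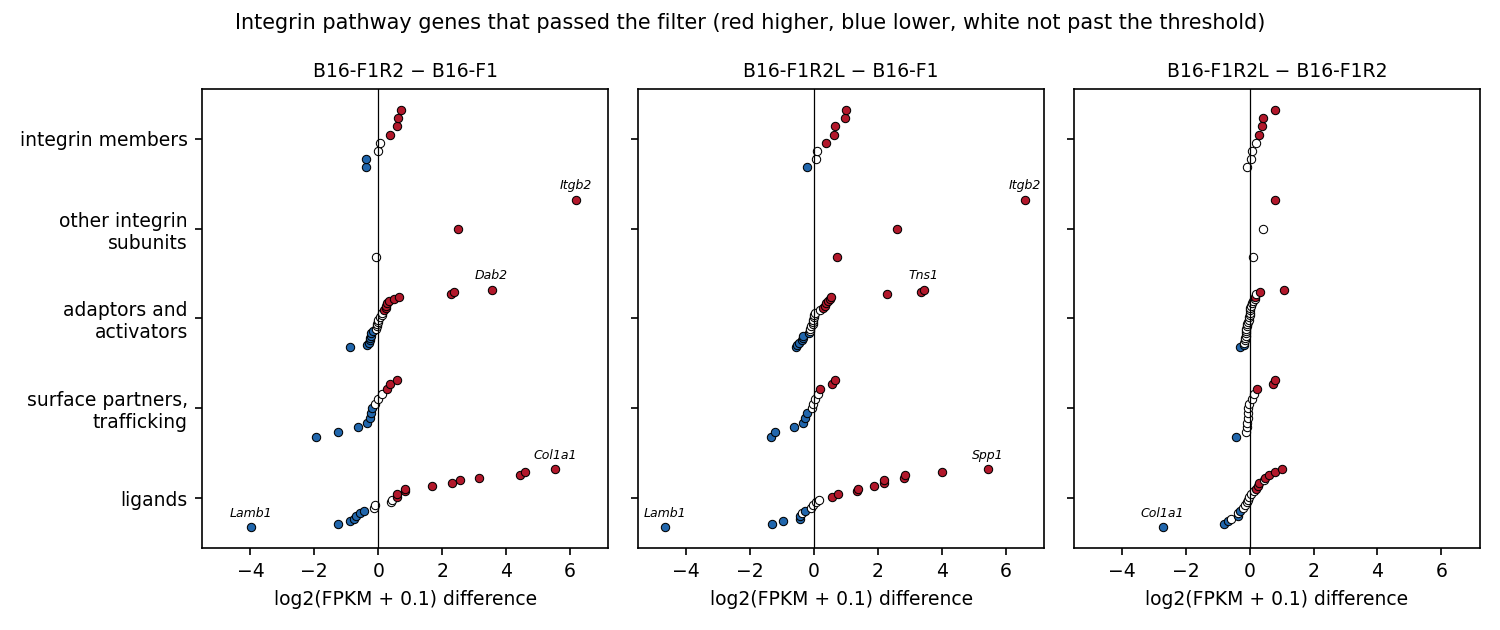
Differences in log2(FPKM + 0.1) for every tested gene of 5 lists (1 point per gene, sorted by value within a list) in the 3 comparisons, red where higher and blue where lower at an adjusted p under 0.05 from limma and white otherwise. The members lie between -0.40 and 1.00, while Itgb2 and single ligands and adaptors reach far beyond them in the comparisons with B16-F1.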

How the data were processed

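The authors isolated total RNA, prepared stranded libraries of the polyadenylated fraction, read 50 bases from 1 end and aligned the reads to NCBI37/mm9 with TopHat2 2.0.10, Bowtie 1.0.0 and SAMtools 0.1.1.9, after FastQC 0.10.1. Per the submitters' processing notes Cuffnorm was among the tools used. The authors deposited FPKM in 1 table of 6 libraries, and the gene annotation is not given in the sources used here. FPKM are not counts, so no count test was run. Depth and reads per gene are estimates from the lowest steps of 5117 genes with 1 annotated transcript, cover no interval, and depend on transcript length.

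Groups came from the cell line labels. Genes at or above 1 FPKM in 2 or more libraries were tested with limma 3.58.1 (R 4.3.3, eBayes with a trend) on log2(FPKM + 0.1) over all 6 libraries, with Benjamini-Hochberg adjustment. An exact permutation test of 2 libraries against 2 cannot give a two-sided p below 0.333. Tested on simulated data (B16-F1R2 against B16-F1, 11379 genes, 200 changed), limma recovered 87.0% and called 12 others. Far fewer genes were changed there than the 6305 called in the data, so 87.0% is not the sensitivity for the members. Positions came from the NCBIM37 annotation by symbol (92.1% of tested genes matched), promoters from RefSeq, with 8 of the 10 members matched. Figures were drawn with matplotlib 3.10.9 under Python 3.11.15.

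The members and lists were chosen with earlier results of these data known. Named besides the members were the other integrin subunits that passed the filter, the 6 genes of the other lists with the largest called change in B16-F1R2 against B16-F1 and, likewise, between the variants, and Fn1, Vtn, Spp1, Emilin1, Vcam1, Tln1, Fermt2, Ilk and Ptk2. The marker genes, Tln2, Lims2, Postn, Cerkl and the partners of Itgb2 were named after their values were seen. Of the endothelial markers, Pecam1 and Prox1 passed the filter, and of the platelet markers Gp9. Alternatives were pseudocounts of 1 and 0.01, no filter or 5 FPKM, 3 other scalings, eBayes without a trend, only the lines compared, a replicate block, a minimum log2 difference of 1 and each library left out.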

Additional observations from a re-analysis of the deposited data

How the results depend on the processing

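The rises of Itga4, Itga5, Itga6 and Itgb5 and the fall of Itgav in B16-F1R2 against B16-F1 were called under all 16 alternatives that set no minimum difference, as were the rises of the same 4 genes in B16-F1R2L against B16-F1. At the estimated depth Itga3 and Itgb7 stand for few reads in the variants, which limits any comparison of them. With a minimum log2 difference of 1, 0 members were called in any comparison, the adaptors called numbered 3, 3 and 1 (B16-F1R2 and B16-F1R2L against B16-F1, then the variants), the ligands 9, 11 and 2, the surface partners 2, 2 and 0, and the other subunits between the variants 0, where 10.1%, 10.7% and 1.23% of all tested genes were called. Members lower in B16-F1R2L than in B16-F1 numbered 0 after rescaling, after quantile normalization and without a trend, where 18.0%, 31.6% and 25.1% of all genes were lower, and members lower in B16-F1R2 numbered 1 with a filter of 5 FPKM, which removes Itgb3 (30.7% of all lower). That filter left 1 other subunit called in B16-F1R2 and 11 ligands in B16-F1R2L against B16-F1 (58.2% and 58.7% of all). Without a filter, 5 and 7 other subunits were called in the comparisons with B16-F1 and 2 ligands between the variants, with 40.6%, 42.2% and 10.1% of all genes called. With a pseudocount of 1, 2 other subunits were called between the variants (24.0% of all). Between the variants, without a trend, 2 adaptors, 6 ligands and 2 surface partners were called (15.3% of all), and with only the lines compared 2, 4 and 2 (13.3%). With each library left out in turn, the members higher in B16-F1R2 stayed at 4 and those lower ran from 1 to 2. In B16-F1R2L against B16-F1 4 to 5 were higher and 0 to 1 lower, and between the variants 0 to 3 were higher. Over the same settings the adaptors ran from 10 to 19 in B16-F1R2 and from 0 to 5 between the variants, the ligands from 2 to 7 and the surface partners from 2 to 4 between the variants, while the share called of all genes ran from 41.8% to 56.0%, from 41.4% to 54.9% and from 3.84% to 16.7% in the 3 comparisons. The cause was not tested.

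Of the differences whose sign changed, that of Col1a2 in B16-F1R2 against B16-F1 was called as deposited (0.59), and it became -0.24 after quantile normalization. Itga1 became -0.21, -0.34 and -0.13 in the 3 comparisons after quantile normalization. Without single libraries it ran from -0.066 to 0.15 and from -0.023 to 0.20 against B16-F1 and from -0.047 to 0.13 between the variants. Itgb1 became 0.0044 (B16-F1R2 against B16-F1) and Itga7 -0.18 between the variants after quantile normalization. Ilk became 0.016 after rescaling and 0.0067 after quantile normalization in B16-F1R2L against B16-F1, and in B16-F1R2 it ran from -0.0028 to 0.089 with each library left out. Between the variants Itga6 became 0.035 and Fermt2 0.0056 after rescaling.

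The deviations of same-numbered libraries correlated at 0.052, -0.10 and 0.079 between the lines. These values show no strong shift shared by the replicate numbers of the labels. They cannot tell whether same-numbered libraries were prepared together. With the replicate block, 4 members were higher and 2 lower in B16-F1R2, 5 and 1 in B16-F1R2L against B16-F1, and 3 and 0 between the variants, where 27.6% of all genes were higher and 26.7% lower, 29.0% and 26.6%, and 10.7% and 9.70%. After rescaling, the share of higher genes among all called in B16-F1R2L against B16-F1 was 66.6%, against 52.1% as deposited.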

Other observations

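Of the 10 members, Itga3 had the widest range of line means on the log2 scale, at 1.899, although it stayed under 1 FPKM. Over the 6 libraries the tested genes outside the lists with the pattern most like it were Dcun1d4 (Pearson r = 0.997), Sfxn2 (0.996) and Ubap2l (0.996). Among the members tested, Itga5 had the widest range, at 1.00, and the most like patterns were those of Aldh3b1 (Pearson r = 0.998), Oas1b (0.997) and Chml (0.997). The levels of Aldh3b1 were 5.03 and 5.62 FPKM for B16-F1, then 9.77 and 10.5 for B16-F1R2 and finally 16.4 and 13.4 for B16-F1R2L. A total of 39 genes had an r above 0.99 with Itga5. The 6 libraries are 3 pairs from the same lines, so such values are a description.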
